A study of Rattus norvegicus with 12 samples.

Results

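Hmox1, Hspb1 and Hspa5 were followed in the T9 spinal cord of the rat as 3 genes of the heme and protein-folding stress responses, chosen by their Ensembl identifiers out of 32883 genes in the deposited table. All 3 had a row in the table, and all 3 passed the filter on low counts that left 5285 genes for testing. The identifiers are ENSRNOG00000014117 for Hmox1, ENSRNOG00000023546 for Hspb1 and ENSRNOG00000018294 for Hspa5. The gene names were given with the identifiers when the genes were chosen, and the tables used here do not pair Ensembl identifiers with names, so the names could not be checked.

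RNA was taken from the T9 segment of Sprague Dawley rats in 12 libraries, 4 in each of 3 groups. Uninjured cord came from animals without spinal cord injury. Injured cord was taken 5 days after the cord had been hemisected at T9, an injury that severs it on a single side, and stimulated cord was taken 5 days after the same injury from animals that also had epidural electrical stimulation over L2 to S1. Age, sex, the stimulation schedule, and whether animals without stimulation carried an electrode are unstated in the labels. The labels do not tie libraries to animals, and the spread on which the p-values rest may therefore be technical. Libraries were made with CEL-Seq2, which counts tags near the 3′ ends of transcripts, so that a level does not grow with gene length and levels of different genes can be set side by side as tags. Levels are given as CPM, which scales counts to a common library size.

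Total counts per library ran from 204836 to 553986, and the stimulated libraries were the shallowest group, at 204836 to 306186. The highest count in any library was between 4059 and 4094, just under the number of different identifiers that 6 bases allow. On the first principal component of log2 CPM, which held 52.4% of the variance, injured replicate 1 scored -0.025, between the other 3 injured libraries (20.2 to 34.4) and the uninjured ones (-56.9 to -47.4). Tissue markers could not be looked up without gene names. In whole cord, a change in the number of cells of a type and a change in RNA per cell cannot be told apart.

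Hmox1 encodes heme oxygenase 1, the inducible enzyme that opens the heme ring and releases biliverdin, carbon monoxide and iron. Macrophages and microglia that take up red cells after bleeding are a known site of its induction, and its transcription is known to be driven by NRF2 and held back by the heme sensor BACH1. Hspb1 encodes the small heat shock protein HSP27 (HSP25 in rodents), an ATP-independent chaperone that binds unfolding proteins and cytoskeletal filaments and is known from reactive astrocytes and injured neurons. Hspa5 encodes BiP (GRP78), the HSP70 chaperone of the endoplasmic reticulum, which folds secreted and membrane proteins and holds the sensors of the unfolded protein response inactive until misfolded protein draws it away.

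All 3 genes rose in injured cord at 5 days, and their sizes of change were far apart. Hmox1 rose about 37.6-fold, Hspb1 9.07-fold and Hspa5 1.82-fold (edgeR quasi-likelihood fit, with adjusted p = 1.98e-06, 5.39e-05 and 0.0144 by Benjamini-Hochberg). All 3 rose in stimulated cord as well, by 33.4-fold, 5.61-fold and 2.28-fold (edgeR adjusted p = 1.76e-06, 0.000278 and 0.00162). None of the 3 differed between stimulated and injured cord by that test. Of all genes tested, 16.8% rose in injured cord and 18.3% rose in stimulated cord, both against the same uninjured libraries. The 3 genes were chosen with earlier results of these data known, so these shares are not a chance rate for them. The median log2 fold change over all genes tested was -0.0037 in injured and 0.013 in stimulated cord.

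**Figure D1:**
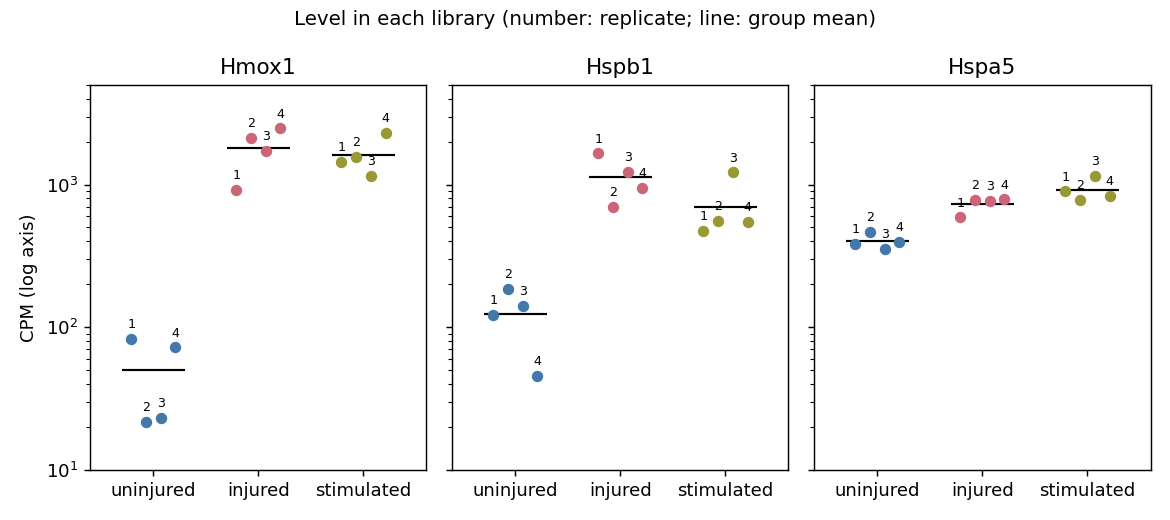
Level of Hmox1, Hspb1 and Hspa5 in CPM (log axis) in each of 4 uninjured, 4 injured and 4 stimulated libraries, with the replicate number beside each point and a line at the group mean. For each gene every injured and stimulated library lies above every uninjured library, with the widest gap for Hmox1 and the narrowest for Hspa5.

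The heme-degrading enzyme Hmox1 was scarce in uninjured cord, with 19, 9, 7 and 19 counts in replicates 1 to 4, or 82.4, 21.6, 23.0 and 72.1 CPM. Injured replicates 1 to 4 had 468, 826, 654 and 1462 counts, or 920, 2137, 1723 and 2475 CPM. Stimulated replicates 1 to 4 had 256, 442, 298 and 493 counts, or 1450, 1564, 1145 and 2288 CPM. The groups did not overlap with uninjured cord: the lowest injured library, replicate 1, was 11.2 times the highest uninjured library, and the lowest stimulated library was 13.9 times it. Such separation upward was seen in 16.6% of genes tested for injured and 16.0% for stimulated cord.

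Hmox1 averaged 49.8 ± 32.0 CPM without injury, against 1814 ± 670 CPM in injured and 1612 ± 484 CPM in stimulated cord (SD, n = 4 each). The log2 fold change was 5.23 (SE 0.49, edgeR adjusted p = 1.98e-06) in injured and 5.06 (SE 0.49, edgeR adjusted p = 1.76e-06) in stimulated cord. Hmox1 moved from the 3408th most abundant of the 5285 genes tested in uninjured cord to the 50th in injured and the 76th in stimulated cord. Its fold change was the 16th highest of all tested genes in injured cord and the 32nd highest in stimulated cord. As a share of all counts it went from 0.00406% to 0.183% and 0.143%.

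The uninjured level is the less precise end of that fold. The lowest uninjured count, 7 in replicate 3, has an exact 95% Poisson interval of 2.81 to 14.4 counts, while the 1462 counts of injured replicate 4 have one of 1388 to 1539. These intervals cover counting error only. The uninjured libraries also fell into 2 pairs, with replicates 1 and 4 at 72.1 and 82.4 CPM and replicates 2 and 3 at 21.6 and 23.0 CPM. Leaving out single libraries moved the injured fold between 30.8 without uninjured replicate 2 and 46.8 without uninjured replicate 1. Without injured replicate 1 it was 43.0. At the upper end, high counts lose tags when different molecules share an identifier. If reads were collapsed by 6-base identifiers, the 1462 counts would stand for 1808 molecules, and the fold in injured cord would be 41.7 after that correction.

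**Figure D2:**
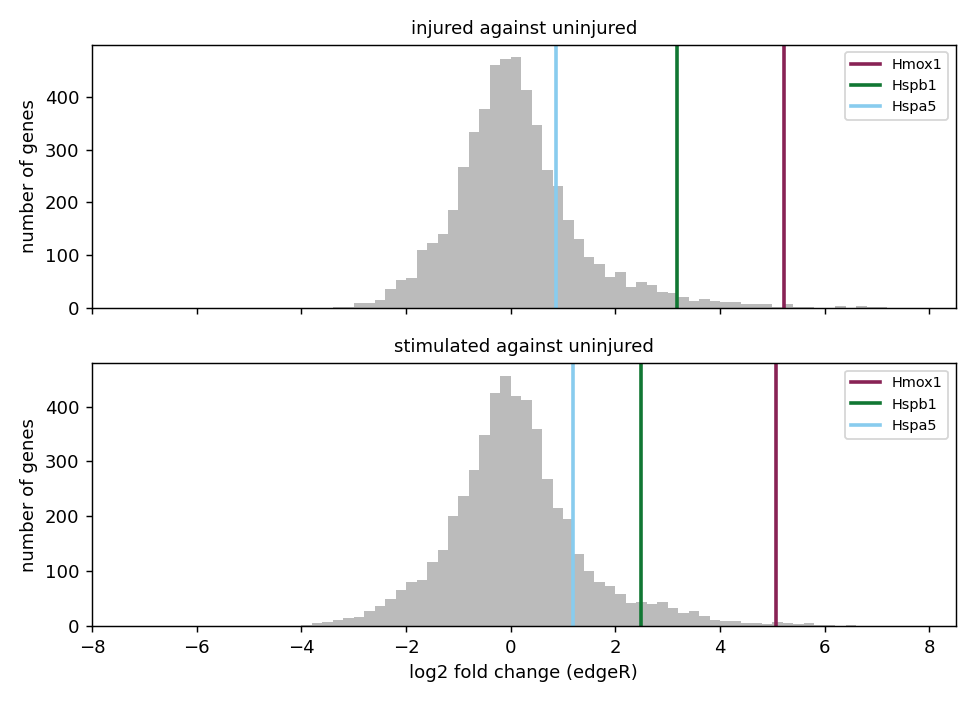
Distribution of edgeR log2 fold changes of 5285 genes in injured (top) and stimulated (bottom) against uninjured cord, with vertical lines for the 3 genes and the number of genes per bin of log2 fold change on the y axis. Hmox1 lies in the far right tail in both (5.23 and 5.06), Hspb1 inside that tail (3.18 and 2.49) and Hspa5 on the right shoulder (0.87 and 1.19).

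The small heat shock protein gene Hspb1 had 28, 77, 43 and 12 counts in uninjured replicates 1 to 4, or 121, 185, 141 and 45.6 CPM. Injured replicates 1 to 4 had 842, 269, 465 and 563 counts, or 1655, 696, 1225 and 953 CPM. In stimulated replicates 1 to 4 there were 83, 158, 317 and 118 counts, or 470, 559, 1218 and 548 CPM. Every injured and stimulated library lay above the uninjured ones, and stimulated replicate 3 stood apart from the other 3 stimulated libraries at a level that only injured replicates 1 and 3 exceeded among the injured ones.

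Hspb1 averaged 123 ± 58.2 CPM in uninjured, 1132 ± 410 CPM in injured and 699 ± 349 CPM in stimulated cord (SD, n = 4 each). The log2 fold change was 3.18 (SE 0.44, edgeR adjusted p = 5.39e-05) in injured and 2.49 (SE 0.43, edgeR adjusted p = 0.000278) in stimulated cord. The smallest ratio between a library of the injured group and one of the uninjured group was 3.77, and for stimulated against uninjured cord it was 2.55. Hspb1 went from the 1634th most abundant gene tested to the 102nd in injured and the 220th in stimulated cord. By fold change it was the 122nd highest gene in injured and the 295th highest in stimulated cord. Without stimulated replicate 3 the rise in stimulated cord was 4.10-fold (edgeR adjusted p = 0.00133).

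The promoter stretches of the heat-inducible and the ER-stress-inducible gene are shown because each carries letters of the element its class is known for. Picked in this way, the matches are no separate result, and any link to the rises was not tested. RefSeq sequences (GRCr8, an assembly other than the Rnor_6.0 named for the counts) were matched by symbol for 2 of the 3 members, Hspb1 and Hspa5. Each is the 250 bases before the RefSeq gene start, 5′ to 3′ on the gene's strand. Capitals mark, in Hspb1 at chr12:26432302-26432551 (minus strand), the heat shock element core GAANNTTC, and in Hspa5 at chr3:38452766-38453015 (plus strand), the ER stress element, CCAAT and CCACG with 9 bases between them.
Hspb1: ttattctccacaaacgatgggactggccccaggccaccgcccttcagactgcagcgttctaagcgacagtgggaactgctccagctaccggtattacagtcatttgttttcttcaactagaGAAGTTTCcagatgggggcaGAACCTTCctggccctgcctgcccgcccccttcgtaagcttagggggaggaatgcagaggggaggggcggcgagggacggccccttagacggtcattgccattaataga
Hspa5: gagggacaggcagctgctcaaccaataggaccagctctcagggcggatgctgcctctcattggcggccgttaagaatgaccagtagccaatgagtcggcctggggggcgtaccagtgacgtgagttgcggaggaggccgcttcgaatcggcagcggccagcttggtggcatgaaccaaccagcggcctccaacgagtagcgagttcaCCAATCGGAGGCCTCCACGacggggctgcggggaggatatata

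In the Hspb1 stretch the core GAANNTTC, which heat shock factor is known to bind in repeats, occurred at 129 to 122 and at 109 to 102 bases before the gene start, with no overlap. At least 1 match was present in 7.23% of 33469 RefSeq promoter stretches of this length, and 2 or more in 0.4%. The other phase of that core, TTCNNGAA, was searched too, and it was in 7.48% of the stretches and in neither of these. In the Hspa5 stretch the ER stress element, which ATF6 is known to bind together with NF-Y, occurred at 43 to 25 bases before the gene start. It was in 22 of 33469 stretches, or 0.0657%. Both strands were searched for each motif. The motifs were chosen for what is known of these gene classes, so the shares are not a chance rate for the matches. The matches describe letters only, and no binding was measured in these libraries.

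The ER chaperone gene Hspa5 had 89, 195, 107 and 105 counts in uninjured replicates 1 to 4, or 386, 468, 351 and 399 CPM. Injured replicates 1 to 4 had 299, 303, 292 and 465 counts, or 588, 784, 769 and 787 CPM. Stimulated replicates 1 to 4 had 158, 220, 300 and 179 counts, or 895, 778, 1153 and 831 CPM. Injured replicate 1 was the low library of its group and still lay 1.26 times above the highest uninjured library, and the other 3 injured libraries were within 769 to 787 CPM.

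Hspa5 was the most abundant of the 3 before injury, at 401 ± 48.9 CPM in uninjured cord, and reached 732 ± 96.4 CPM in injured and 914 ± 166 CPM in stimulated cord (SD, n = 4 each). The log2 fold change was 0.87 (SE 0.25, edgeR adjusted p = 0.0144) in injured and 1.19 (SE 0.26, edgeR adjusted p = 0.00162) in stimulated cord. By size of fold change Hspa5 was the 1061st of 5285 genes in injured cord and the 854th of the 889 genes that rose there. In stimulated cord it was the 810th of 5285. The call in injured cord was lost without uninjured replicate 3, which had the lowest uninjured level (1.71-fold, edgeR adjusted p = 0.0509). Without injured replicate 1 the rise was 1.92-fold (edgeR adjusted p = 0.0117).

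The order of the 3 genes by level changed with injury. In uninjured cord the order of mean levels was Hspa5, Hspb1, Hmox1, and the Hspa5 range of 351 to 468 CPM lay above the ranges of the other two, which overlapped each other. In injured cord the order of means was Hmox1, Hspb1, Hspa5, and the ranges overlapped between neighbours. In stimulated cord the order of means was Hmox1, Hspa5, Hspb1. There the ranges of Hspa5 and Hspb1 overlapped, and those of Hmox1 and Hspa5 met only through stimulated replicate 3, which had the lowest Hmox1 and the highest Hspa5 of its group.

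Counts of 2 genes within a library give their ratio free of any scaling between libraries. For each Hspa5 count, uninjured libraries had 0.0462 to 0.213 Hmox1 counts, injured ones 1.57 to 3.14 and stimulated ones 0.993 to 2.75. Hspb1 counts for each Hspa5 count ran from 0.114 to 0.402 without injury, from 0.888 to 2.82 with injury alone and from 0.525 to 1.06 with stimulation. For both ratios every injured and stimulated library lay above every uninjured one, so Hmox1 and Hspb1 were higher in them relative to Hspa5 as well as relative to the library total. No test was attached to the ratios, and the same separation relative to Hspa5 was not counted over all genes. Hmox1 counts for each Hspb1 count were 0.117 to 1.58, 0.556 to 3.07 and 0.94 to 4.18 in the same order of groups, and these ranges overlapped.

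Stimulated cord was then set against injured cord, to see whether stimulation went with a different level of these genes. Hmox1 was at 1612 CPM against 1814 CPM, a log2 fold change of -0.17 (SE 0.39, edgeR adjusted p = 0.902). Hspb1 was at 699 CPM against 1132 CPM, a log2 fold change of -0.69 (SE 0.39, edgeR adjusted p = 0.591, unadjusted p = 0.0964). Hspa5 was at 914 CPM against 732 CPM, a log2 fold change of 0.32 (SE 0.25, edgeR adjusted p = 0.675). The ranges of the groups overlapped for each gene. In this comparison edgeR called 0 of 5285 genes, DESeq2 called 1 and limma-voom with sample weights called 0, and 491 genes, or 9.29%, were at an unadjusted p under 0.05 by edgeR, with none of the 3 among them.

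Intervals give the size of difference these libraries leave possible. Between stimulated and injured cord, the 95% interval from limma-voom on the log2 scale was -0.91 to 0.67 for Hmox1, which spans 0.531 to 1.59 times the injured level. For Hspb1 it was -1.57 to 0.10, or 0.337 to 1.07 times, and for Hspa5 it was -0.18 to 0.81, or 0.886 to 1.75 times. A fall of Hspb1 to less than 1 part in 2 and a rise of Hspa5 by 1.5 times thus both lie inside the intervals, and equal levels were not shown. Against uninjured cord the intervals lay above 0 for all 3 genes in both groups. In injured cord they did not meet: 4.50 to 6.36 for Hmox1, 2.39 to 4.11 for Hspb1 and 0.37 to 1.35 for Hspa5. In stimulated cord Hmox1, at 4.37 to 6.24, lay apart from the others, while Hspb1, at 1.65 to 3.38, and Hspa5, at 0.69 to 1.67, met at their ends.

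**Figure D3:**
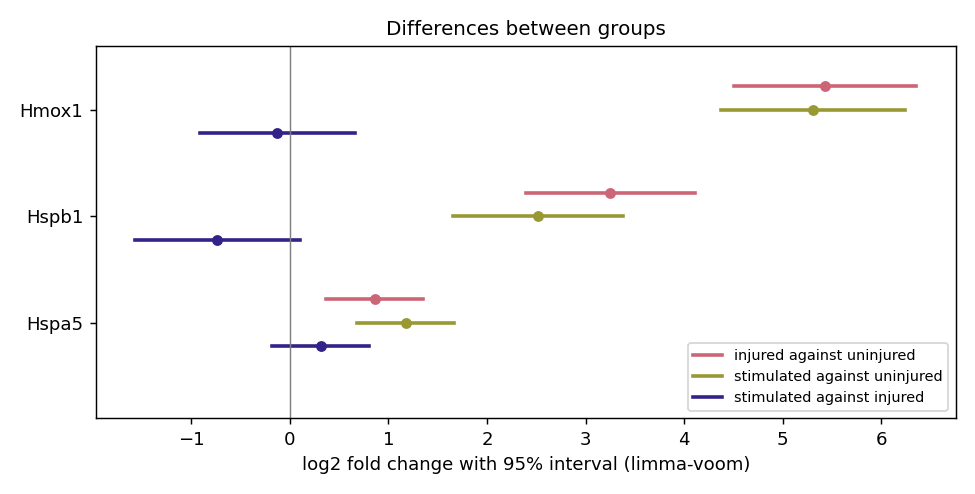
Log2 fold change (points) with limma-voom 95% interval (bars) for each gene in 3 comparisons. The intervals against uninjured cord lie above 0 for each gene, from 4.37 upward for Hmox1 and from 0.37 upward for Hspa5, and those of stimulated against injured cord all include 0.

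Of the 16 pairs of 1 stimulated and 1 injured library, the stimulated one was the higher in 6 for Hmox1, in 2 for Hspb1 and in 14 for Hspa5. The 2 pairs for Hspb1 both involve stimulated replicate 3, at 1218 CPM. Without that library the Hspb1 log2 fold change was -1.15 (edgeR adjusted p = 0.551), and without injured replicate 1, the highest Hspb1 library of all, it was -0.46 (edgeR adjusted p = 0.869). For Hspa5, stimulated replicate 3 was also the highest library of all, and without it the log2 fold change was 0.16 (edgeR adjusted p = 0.887). The sign of the Hmox1 difference depended on 1 library: without injured replicate 4, its highest library, it was 0.014 (edgeR adjusted p = 0.998).

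The spread between libraries of a group differed among the 3 genes. The SD of log2 CPM of Hspa5 was 0.17, 0.20 and 0.25 for uninjured, injured and stimulated libraries, below the median over all genes tested of 0.47, 0.40 and 0.47. For Hmox1 it was 0.90, 0.63 and 0.41, and for Hspb1 0.82, 0.53 and 0.61. These SDs include counting error, which is at most 10.6% for Hspa5 in any library and larger for the many tested genes with fewer counts. The biological coefficient of variation from edgeR leaves counting error out, but it draws each gene toward the trend over all genes. It was 25.8% for Hspa5, 38.8% for Hmox1 and 39.4% for Hspb1, with a median of 30.0% over all genes tested. For Hspa5 the plain coefficient of variation of CPM, counting error included, was 12.2%, 13.2% and 18.2% in uninjured, injured and stimulated libraries. The 25.8% is therefore above the gene's own spread in these libraries.

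Deviations of Hmox1 and Hspb1 from the group mean had opposite signs in 9 of 12 libraries, 1 of them stimulated replicate 2 with Hmox1 only 0.0020 above its mean. Hmox1 and Hspa5 had opposite signs in 6 of 12 and Hspb1 and Hspa5 in 5 of 12. Deviations within a group sum to 0, so these are not independent signs, and no test was attached. In injured cord replicate 1 had the lowest Hmox1 and the highest Hspb1, and in stimulated cord replicate 3 did. In uninjured cord replicates 2 and 3 had the lowest Hmox1 and the highest Hspb1.

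**Figure D4:**
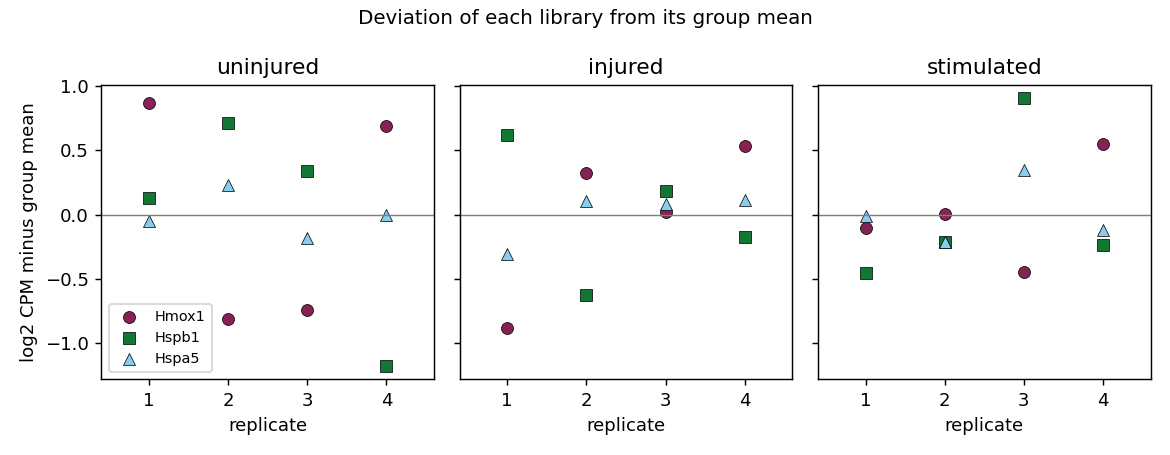
Deviation of log2 CPM from the group mean for Hmox1 (circles), Hspb1 (squares) and Hspa5 (triangles), by replicate number in each group; replicates have no order. Hmox1 and Hspb1 lie on opposite sides of 0 in 9 of 12 libraries, while Hspa5 stays within 0.35 of 0.

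Libraries within a group also differed over the whole transcriptome. Injured replicate 1 stood apart on the first component over all libraries, at -0.025 against 20.2 to 34.4 for the rest of its group. The first component of the within-group variation, computed without the 3 genes, held 39.5% of that variance and was positive in uninjured replicates 2 and 3, injured replicates 1 and 3 and stimulated replicates 1 and 3, and negative in the other 6 libraries. In each group both positive libraries had less Hmox1 than both negative ones. For Hspb1 the positive libraries were the higher ones in uninjured and in injured cord, and in stimulated cord replicate 3 was the highest and replicate 1 the lowest. By slope on that component Hmox1 was at the 4.9 percentile of genes tested, Hspb1 at the 92.3 percentile and Hspa5 at the 54.1 percentile. What the component stands for was not tested. Both signs occur in each group by construction, since the deviations were taken from each group's own mean.

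Genes with the pattern most like each member were found by the root mean square difference of log2 CPM over the 12 libraries, with each gene centred on its own mean, among 3112 other genes with a mean count of 20 or more. The nearest to Hmox1 was ENSRNOG00000012804, at a difference of 0.42, where the median gene was at 2.50. That gene averaged 134 CPM in uninjured, 2670 CPM in injured and 2723 CPM in stimulated cord. The nearest to Hspb1 was ENSRNOG00000024159, at 0.46 with a median of 1.57, and it averaged 97.2, 1002 and 856 CPM in the same groups. For Hspa5 the nearest gene was at 0.20 with a median of 0.75, and it also rose (edgeR adjusted p = 0.0447 in injured and 0.00456 in stimulated cord). These genes were picked for likeness to members that rose, so their rises are no separate result. Between members the difference was 1.52 for Hmox1 and Hspb1 and 2.02 for Hmox1 and Hspa5, both under the 2.50 of the median gene from Hmox1. Hspb1 and Hspa5 were 1.12 apart, under the 1.57 of the median gene from Hspb1 and over the 0.75 of the median gene from Hspa5. The members all rose, as most genes tested did not, so a distance under the median is no separate sign of likeness.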

How the data were processed

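The authors deposited raw counts for each gene in 1 table. Tools named in the submitters' processing notes are HISAT2 2.0.4 and HTSeq 0.6.0, and the genome build named is Rnor_6.0; what each was used for is unstated. The annotation, the strand setting and any collapsing by molecular identifier were not given in those sources. Reads of overlapping or near-identical genes may have been counted together. Groups came from the labels. Within groups, every pair of libraries differed beyond sampling noise (chi-square over its degrees of freedom at least 2.95).

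The analysis used edgeR 4.0.16 in R 4.3.3: filterByExpr, TMM scaling, and a robust quasi-likelihood fit of group to all 12 libraries (9 residual degrees of freedom), with Benjamini-Hochberg adjustment over all 5285 genes in each comparison and 0.05 as the threshold. A prior count of 2 was added for log2 CPM. SE was taken as the log2 fold change over the root of F. Intervals came from limma 3.58.1 with voom, and DESeq2 1.42.0 was an alternative. The fit was tested on simulated data. The members and lists were chosen with earlier results of these data known. Named genes were the 3 members and the nearest gene by pattern, held to 2 identifiers that rose. The lists of heme, NRF2, chaperone and unfolded protein response genes and of cell markers were not run, since 0 Ensembl identifiers matched a symbol. Alternatives were other scalings, filters and tools, only the 2 groups compared, a replicate block, correction for identifier collisions and leaving out each library; the first component of within-group variation as a covariate was chosen after seeing the data.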

Additional observations from a re-analysis of the deposited data

Results flagged for a closer look

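A library is listed here when the distance to its closest neighbour took up more of the group's range than Dixon's 95% critical value for 4 samples. That was so in 2 of 9 sets of 4 libraries (3 genes in 3 groups), and chance flags about 1 in 20 groups. Hspb1 in stimulated replicate 3 was at 1218 CPM, where the other stimulated libraries were at 470 to 559 CPM (0.881 of the range). Hspa5 in injured replicate 1 was at 588 CPM, where the other injured libraries were at 769 to 787 CPM (0.911 of the range).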

How the results depend on the processing

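Against uninjured cord, 137 of 138 values of the 3 genes under 11 other settings and 12 left-out libraries kept their direction and their call. The exception was Hspa5 in injured cord, whose log2 fold change without single libraries ran from 0.78 (without uninjured replicate 3, where the call was lost) to 0.94. For stimulated against injured cord 68 of 69 values kept sign and side of the threshold; Hmox1 without single libraries ran from -0.41 to 0.014, the latter a change of sign without injured replicate 4. Adjusted p in that comparison was 0.216 or more for each gene under every setting tried. Scaling by total counts moved the median gene by 0.12 in injured against uninjured and by -0.15 in stimulated against injured cord, and the genes' log2 fold changes in the latter were then -0.33, -0.84 and 0.17 for Hmox1, Hspb1 and Hspa5.

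Genes called in injured cord numbered 1123 with a mean count of 20 or more, from 3113 tested. Genes called between stimulated and injured cord numbered 28 with no filter, 1 with DESeq2, 2 with the within-group component as a covariate and 0 to 1 without single libraries. That covariate was built from the within-group deviations of the same libraries and averages 0 in each group, so by construction it hardly moves a fold change and lowers p-values; it is 1 of the 11 settings counted above and carries no weight. With the replicate block the counts of calls were 1801, 1911 and 0 for injured against uninjured, stimulated against uninjured and stimulated against injured cord, and no call of the 3 genes changed. Deviations of same-numbered libraries correlated from -0.344 to 0.429, over 0.1 in 7 of 12 pairs. The range was -0.344 to 0.116 for replicates 1 and 2, and 0.276 to 0.429 for replicates 3 and 4. In both other groups at once, 4 of 12 libraries correlated best with their own number. The labels name no pairing, so the numbers were not taken as pairs, and these correlations do not settle whether they are. Depth limits Hmox1 in uninjured cord most, at 7 to 19 counts a library.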
